A study of Caenorhabditis elegans with 35 samples.

Results

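The innate defence effector genes of Caenorhabditis elegans are described here across 7 genotypes of young larvae. A locus of the expression table was taken as a member when its gene name, or one of its gene names, was of the saposin-like (spp), caenacin (cnc), antibacterial factor (abf), fungus-induced protein (fip and fipr), lysozyme (lys), invertebrate-type lysozyme (ilys) or thaumatin (thn) families. These names fitted 96 of 37555 loci. Of the 96 loci, 44 had values above 0 in at least 5 libraries, which was required for any statement on a single locus, and 52 did not, among them 33 that were listed at 0 in every library. The 22 loci that reached 5 scaled counts (fragment counts divided by a size factor for each library) in 5 libraries or more were tested across genotypes, as 22 of 1101 tested loci.

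Whole larvae were collected after eggs laid over 6 h at 20°C had been held at 25°C for 24 h, and polyadenylated RNA was sequenced from 5 libraries of each genotype, numbered 6 to 10. The daf-16 triple mutant was daf-16;eak-7;akt-1, and the daf-12 triple mutant was eak-7;akt-1;daf-12. The dpy-21 triple mutant was eak-7;akt-1 dpy-21. The set-4(n4600) triple mutant was set-4(n4600);eak-7;akt-1. With the other allele, the set-4(dp268) triple mutant was set-4(dp268);eak-7;akt-1. Their common background, the double mutant eak-7;akt-1, arrests as dauer larvae at this temperature, and in each triple mutant the added mutation suppresses that arrest. The last group was wild type. daf-16 encodes a FoxO transcription factor, daf-12 a nuclear hormone receptor, dpy-21 a dosage compensation protein and set-4 an H4K20 methyltransferase, for which n4600 is a deletion and dp268 a point mutation. Each triple mutant was set against the double mutant, and the double mutant against wild type. Since the 5 triple mutants share one set of double-mutant libraries, their comparisons are not independent of each other.

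Nematodes have no adaptive immunity, and small secreted proteins of the intestine and epidermis are among their known defences. Saposin-like proteins are related to amoebapores, which act on membranes, and spp-5 has been shown to kill bacteria. Caenacins are glycine-rich antimicrobial peptides, of which cnc-2 is known for its induction in the epidermis by a fungus. The fip and fipr genes were named for induction by fungal infection or for similarity to genes so induced, and lysozymes cut bacterial cell walls.

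The fragments recovered from the scaled counts numbered 34193 to 88068 per library, with a median of 56780, and the member loci took 1.62% to 6.11% of them. These are counts behind the deposited values, not the number of reads sequenced. Counts leaned to short transcripts. Of loci of 1 gene, 14.3% of those with transcripts of over 300 and up to 400 nt passed the filter, against 1.99% of those of over 800 and up to 1000 nt. The long housekeeping gene eef-1A.1 was listed at 0 in all libraries, and whether its length is the reason was not tested. A low value of a long transcript therefore does not show that the gene was silent. The 16 tested member loci of 1 gene had transcripts of 278 to 472 nt, whereas the 5 such lys loci ran from 672 to 970 nt.

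The libraries fell into 2 sets that crossed the genotypes. On the first principal component of the tested loci, computed without the members, 9 libraries stood apart from the other 26, with a gap of 29 in a range of 55.3. The 9 were replicate 10 of the daf-16 triple mutant, replicate 7 of the daf-12 triple mutant, replicates 6 and 9 of the dpy-21 triple mutant, replicate 7 of the set-4(n4600) triple mutant, replicates 6 and 10 of the double mutant and replicates 7 and 10 of wild type, and none was from the set-4(dp268) triple mutant. They are called the smaller set below and the 26 the larger set, and results are given in all 35 libraries and, where the sets matter, in the 26. The split was drawn from these same data, so every p-value and call among the 26 libraries is conditional on it. The 9 libraries had 34193 to 58116 fragments, and the 26 had 48654 to 88068. What sets the 9 libraries apart, depth included, was not tested.

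Among the tested members with a locus of their own, the highest levels per kilobase were those of saposin-like proteins and caenacins. Per kilobase of transcript, spp-17 averaged 1960 scaled counts over the 35 libraries, cnc-10 averaged 1299, spp-5 averaged 904, cnc-8 averaged 314 and spp-23 averaged 158. The spp-14 locus had 672 scaled counts on average and the fip-1 locus 78.5, but they also hold K09F5.6 and F22B7.t1, so no value per length is given for them. By family, 6 of 23 spp loci, 6 of 10 cnc loci, 8 of 29 fipr loci, 1 of 7 fip loci and 1 of 8 lys loci passed the filter, and none of the 6 abf, 6 ilys and 8 thn loci did. The only lys locus that passed holds lys-6 together with mars-1, F58B3.4 and 21ur-12575, which cannot be told apart, and it averaged 3.36 scaled counts.

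In the double mutant versus wild type, 8 of the 22 member loci changed by at least 1.5-fold at an adjusted p below 0.05, beside 13% of all tested loci. The 5 that fell were all fipr loci, and the 3 that rose were fip-1, cnc-8 and the cnc-9 locus, beside 5.18% of all tested loci lower and 7.81% higher. fipr-7 and the cnc-9 locus each reached 5 scaled counts in only 5 libraries, and fipr-6 in 7. Without wild type fipr-6 and fipr-7 would have missed the filter, as would the cnc-9 locus without the double mutant. The filter thus bears on the direction of their calls here and below. The median log2 fold change, on log2(scaled count + 1) here and below, of the 22 members was 0.54, against 0.19 over all tested loci. The only lysozyme locus tested, the one that lys-6 shares with other genes, was not called.

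fipr-10 (chromosome V, 9914163 to 9914529, plus strand, WBcel235) showed the clearest difference of the fipr loci. It had 4.28, 0, 2.32, 6.66 and 0.988 scaled counts in the double mutant libraries, against 98.1, 106, 70.5, 116 and 92.3 scaled counts in wild type. Every double mutant library was below every wild-type library. The mean of 2.85 ± 2.67 in the double mutant was 33.9-fold below that of 96.7 ± 17.2 in wild type (SD, n = 5 each), and the log2 fold change was -4.98 (SE 0.44, limma adjusted p = 3.75e-10).

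fipr-11 (chromosome V, 9905853 to 9906215, minus strand) lies next to fipr-10 among the members and showed the same order of levels. It had 0, 0, 1.16, 0 and 0.988 scaled counts in the double mutant, against 24.8, 16, 20.0, 41.8 and 23.4 in wild type. These were 2 fragments in all against 128, so that the level in the double mutant was lower by a ratio of 59.3 with an exact 95% counting interval of 16.1 to 495. The log2 fold change was -4.22 (SE 0.48, limma adjusted p = 5.57e-08), a value that depends on the pseudocount where so few fragments were counted.

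fipr-4, fipr-6 and fipr-7 lie within chromosome V, 10228043 to 10231594, and fell as well. fipr-4 had 2.85, 2.16, 0, 0.951 and 2.96 scaled counts in the double mutant, against 8.92, 4.26, 12.6, 10.9 and 6.16 in wild type, with a log2 fold change of -1.86 (SE 0.47, limma adjusted p = 0.00426). fipr-6 and fipr-7 were each seen in replicate 7 of the double mutant alone, with 2 fragments. In wild type fipr-6 had 2.46 to 13.8 scaled counts and fipr-7 had 4.21 to 9.58. The 2 loci were lower in the double mutant by ratios of 16.2 (exact 95% counting interval 4.17 to 139) and 14.4 (3.66 to 124), with limma adjusted p of 0.000293 and 8.39e-05. For all 5 fipr loci the 2 groups of libraries did not overlap, which was so for 11.6% of all tested loci, and the calls held among the 26 libraries.

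The 5 loci lie in a stretch of 334109 bp of chromosome V, from 9905853 to 10239961, in which 4 other loci were tested and none of those 4 was called (limma adjusted p from 0.208 to 0.911). The stretch was chosen after the values were seen. Inside it fipr-5, fipr-8 and fipr-9 stayed below the filter, and these were also chosen after their values were seen. fipr-9 had 1 fragment in the 5 double mutant libraries, against 24 in wild type (exact permutation p = 0.00794 on log2 values, the smallest that 5 against 5 allows). The fipr-5 locus, which also holds C12D8.13, had 0 fragments in the double mutant, against 15 in wild type, which makes it at least 4.64-fold lower by a floor of 3 fragments over the group (exact permutation p = 0.0476). The fipr-8 locus, which also holds C12D8.1 and C12D8.21, had 7 fragments in the double mutant, against 24 in wild type (exact permutation p = 0.0317). These p-values are not adjusted, and 5 of the 22 loci seen below the filter had one below 0.05 in this comparison. The permutation test was run on members only, so no share of other loci below the filter stands beside this count.

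**Figure D1:**
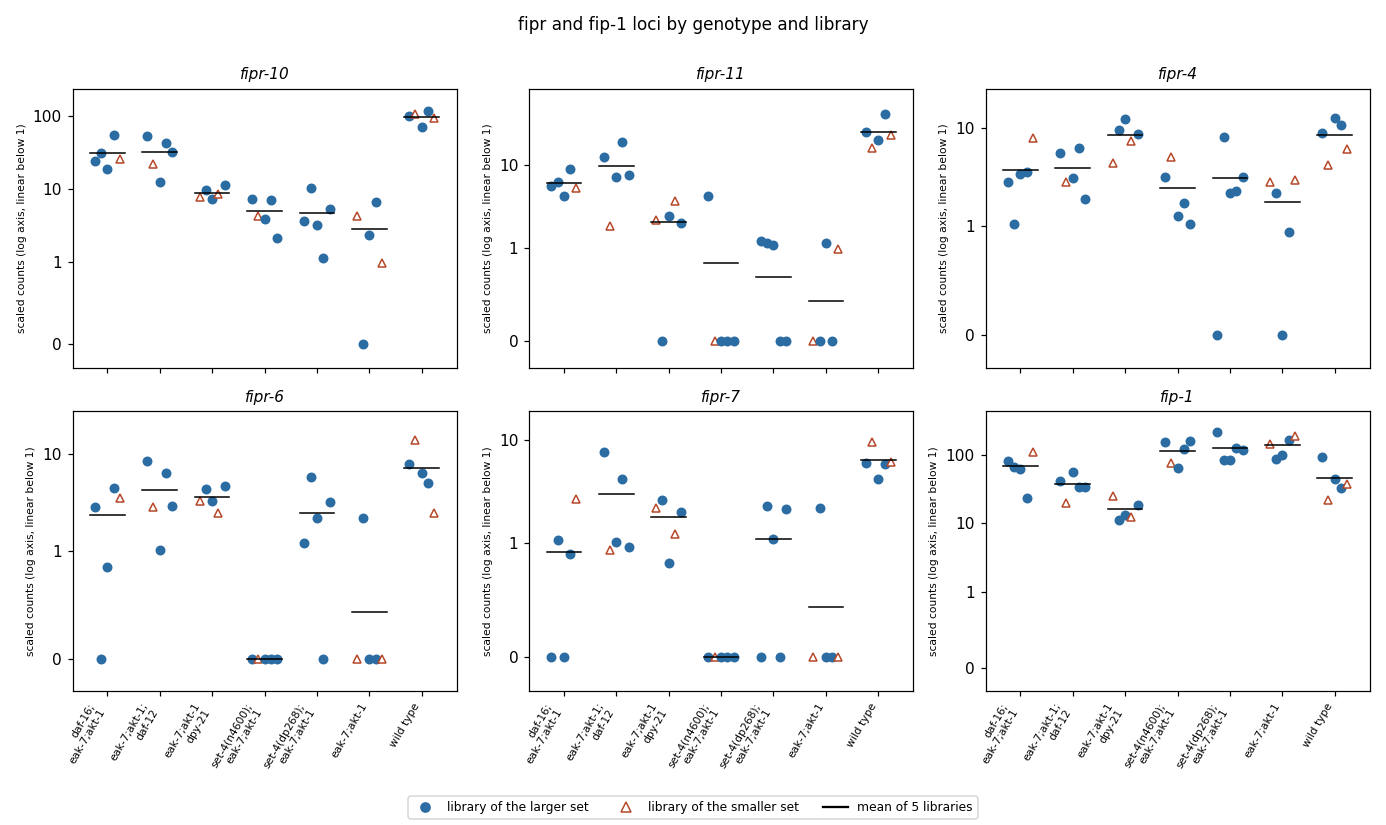
Scaled counts of 5 fipr loci of chromosome V and of fip-1 in each library, by genotype, on a log axis that is linear below 1; circles are the 26 libraries of the larger set, open triangles the 9 of the smaller set, and bars the means of 5 libraries. fipr-10 lies between 0 and 6.66 in the double mutant and between 70.5 and 116 in wild type, while fip-1 is lowest in the dpy-21 triple mutant, at 11.3 to 25.3.

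Counting did not use strand as far as the sources used here say, and fipr-10 and fipr-11 overlap mec-9 and egl-47 on the opposite strand in the annotation, as fip-1 overlaps twk-7. Likewise fipr-1 overlaps F23H12.5, fipr-2 overlaps gcy-13 and spp-13 overlaps F08F1.14 on the opposite strand. On the list of epidermal markers, the collagen gene rol-6 and the locus of the collagen gene sqt-3 (which also holds F23H12.5 and 3 other names) fell too, by 2.25 and 2.08 on the log2 scale, and they rose in the daf-16 and daf-12 triple mutants (limma adjusted p from 0.000153 to 0.00979). In the dpy-21 triple mutant neither was called (log2 fold change 1.06 and 0.97, limma adjusted p = 0.101 and 0.213), nor was either in the set-4 triple mutants. rol-6 was at 0 in the double mutant, against a mean of 4.98 scaled counts in wild type, and the whole list of 6 markers summed to 0 to 2.85 scaled counts in the double mutant libraries and 5.01 to 16.8 in wild-type libraries. bli-1 and col-19 of that list were at 0 in every library. In whole larvae, fewer cells of a type and less RNA per cell cannot be told apart, and the part of these genes in the fipr result was not tested.

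fip-1, on chromosome III in a locus shared with F22B7.t1, rose in the double mutant. It had 147, 87.7, 101, 167 and 188 scaled counts in the double mutant, against 93.2, 22.4, 45.2, 33.4 and 38.2 in wild type, and only replicate 6 of wild type reached into the range of the mutant. The log2 fold change was 1.65 (SE 0.38, limma adjusted p = 0.00169). In the 26 libraries it was 1.11 with a limma adjusted p of 0.0957, so that the call was lost.

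Among caenacins, cnc-8 (chromosome X) rose and cnc-10 (chromosome V) did not. cnc-8 had 104, 117, 121, 132 and 139 scaled counts in the double mutant, against 102, 71.3, 75.7, 55.1 and 57.9 in wild type, with all mutant libraries above all wild-type ones and a log2 fold change of 0.78 (SE 0.17, limma adjusted p = 0.00124). cnc-10 averaged 455 ± 51.3 scaled counts in the double mutant and 462 ± 117 in wild type (SD, n = 5 each), a log2 difference of 0.00 (SE 0.15). The locus of cnc-9 and the neighbouring gst-41 had 8.56, 1.08, 1.16, 25.7 and 4.94 scaled counts in the double mutant, against 0.991, 0, 0, 0 and 1.23 in wild type, or 40 fragments against 2. Its call (log2 fold change 2.12, limma adjusted p = 0.0191) was lost without replicate 6 or 9 of the double mutant, in a fit of the 2 genotypes alone, and among the 26 libraries (adjusted p = 0.164).

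In the daf-16 triple mutant versus the double mutant, 4 of 22 member loci were called, beside 10.4% of all tested loci. fipr-10 and fipr-11 rose, and cnc-7 and the cnc-9 locus fell, beside 4.18% of all tested loci higher and 6.27% lower. fipr-10 had 23.9, 30.7, 18.8, 53.9 and 25.5 scaled counts in the daf-16 triple mutant, against 0 to 6.66 in the double mutant, a 10.7-fold difference of means (log2 fold change 3.28, SE 0.44, limma adjusted p = 1.64e-06). fipr-11 had 4.27 to 8.99 scaled counts in the daf-16 triple mutant, against 0 to 1.16 in the double mutant (limma adjusted p = 0.000566), which is 31 fragments against 2. Neither pair of ranges overlapped. In this comparison 4 of 22 members did not overlap, beside 9.54% of all tested loci.

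The other 3 fipr loci of that stretch were not called in the daf-16 triple mutant. fipr-4, fipr-6 and fipr-7 averaged 3.76, 2.34 and 0.92 scaled counts there, against 1.79, 0.433 and 0.433 in the double mutant. cnc-7 had 7.02, 3.18, 0, 0 and 3.52 scaled counts in the daf-16 triple mutant, against 18.6, 9.74, 4.64, 6.66 and 6.91 in the double mutant (log2 fold change -1.78, limma adjusted p = 0.0242). The cnc-7 call was lost without replicate 8 or 9 of the daf-16 triple mutant or replicate 6 of the double mutant, each of which left 2 members called in all, and also with a filter of above 0, in edgeR and in a fit of the 2 genotypes alone. The cnc-9 locus had 3 fragments against 40 (limma adjusted p = 0.0365), a call lost without any of replicates 6, 8 and 9 of the daf-16 triple mutant or 6, 9 and 10 of the double mutant, with a filter of above 0, and in a fit of the 2 genotypes alone. Among the 26 libraries the adjusted p was 0.116 for cnc-7 and 0.185 for the cnc-9 locus.

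In the daf-12 triple mutant versus the double mutant, 6 of 22 member loci were called, beside 9.99% of all tested loci. fipr-10, fipr-11, fipr-6 and fipr-7 rose, and fip-1 and cnc-8 fell, beside 5% of all tested loci in each direction. fipr-10 had 51.9, 21.6, 12.3, 42.2 and 31.6 scaled counts in the daf-12 triple mutant, against 0 to 6.66 in the double mutant (log2 fold change 3.27, SE 0.44, limma adjusted p = 1.65e-06). fipr-11 had 12.6, 1.88, 7.19, 19 and 7.67 scaled counts in the daf-12 triple mutant, against 0 to 1.16 in the double mutant (limma adjusted p = 9.07e-05). Both loci were higher in every daf-12 triple mutant library than in any double mutant library, and 5 of 22 members did not overlap, beside 10.6% of all tested loci.

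fipr-6 and fipr-7 counted 25 and 18 fragments in the daf-12 triple mutant and 2 each in the double mutant, and their ranges overlapped. fipr-6 was called at an adjusted p of 0.00851 in limma and fipr-7 at 0.0427, and among the 26 libraries neither was (0.0952 and 0.209). The fipr-7 call was also lost with a filter of above 0, in edgeR, in DESeq2, in a fit of the 2 genotypes alone, and without replicate 6 or 9 of the daf-12 triple mutant or replicate 6, 8, 9 or 10 of the double mutant. fip-1 had 42.1, 19.7, 56.5, 33.8 and 34.5 scaled counts in the daf-12 triple mutant, all below the 87.7 to 188 of the double mutant (log2 fold change -1.88, SE 0.38, limma adjusted p = 0.000578). cnc-8 had 71.6, 69.4, 61.6, 53.8 and 60.4 scaled counts in the daf-12 triple mutant, again below every double mutant library, with a log2 fold change of -0.94 (SE 0.17, limma adjusted p = 0.000153).

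In the dpy-21 triple mutant versus the double mutant, 7 of 22 member loci were called, beside 12.3% of all tested loci. fip-1, cnc-2, cnc-7 and the cnc-9 locus fell, and fipr-10, fipr-6 and fipr-4 rose, beside 8.81% of all tested loci lower and 3.45% higher. fip-1 had 25.3, 11.3, 13.1, 12.3 and 18.7 scaled counts in the dpy-21 triple mutant, against 147, 87.7, 101, 167 and 188 in the double mutant, an 8.55-fold lower mean (log2 fold change -3.02, SE 0.38, limma adjusted p = 7.96e-07). No library of one genotype reached the range of the other, which held for 8 of 22 members, beside 10.5% of all tested loci. fip-1 was also lower in the dpy-21 triple mutant than in wild type, with means of 16.1 ± 5.90 and 46.5 ± 27.4 scaled counts (SD, n = 5 each; limma adjusted p = 0.0186).

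cnc-2, the caenacin known for its induction in the epidermis, had 33, 6.93, 9.83, 9.80 and 9.37 scaled counts in the dpy-21 triple mutant, against 50, 34.6, 33.6, 55.2 and 64.2 in the double mutant. The highest of these dpy-21 triple mutant libraries, replicate 6, came just under the lowest of the double mutant. The log2 fold change was -1.89 (SE 0.38, limma adjusted p = 0.000818). cnc-7 averaged 2.08 ± 1.17 scaled counts in the dpy-21 triple mutant and 9.30 ± 5.48 in the double mutant (SD, n = 5 each; limma adjusted p = 0.0292), a call lost among the 26 libraries, with a filter of above 0, in edgeR and after rescaling, and without replicates 7, 8 or 9 of the dpy-21 triple mutant or 6 or 7 of the double mutant. The cnc-9 locus had 2 fragments against 40 (limma adjusted p = 0.0152), which was lost without replicate 9 of the double mutant, in a fit of the 2 genotypes alone and among the 26 libraries (adjusted p = 0.206).

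fipr-4 had 4.40, 9.52, 12.3, 7.35 and 8.70 scaled counts in the dpy-21 triple mutant, against 2.85, 2.16, 0, 0.951 and 2.96 in the double mutant, with no overlap (log2 fold change 1.87, SE 0.47, limma adjusted p = 0.00602). In wild type fipr-4 averaged 8.56 ± 3.4 scaled counts, beside 8.45 ± 2.90 in the dpy-21 triple mutant (SD, n = 5 each). fipr-10 rose by less in this mutant than it stood above the double mutant in wild type. It had 7.70, 9.52, 7.37, 8.58 and 11.4 scaled counts in the dpy-21 triple mutant, above all double mutant libraries (log2 fold change 1.68, limma adjusted p = 0.00793) and 10.9-fold under wild type (limma adjusted p = 6.29e-06). Among the 26 libraries the rise over the double mutant had an adjusted p of 0.0537, and in a fit of the 2 genotypes alone it was 0.0622. fipr-6 counted 21 fragments against 2 (limma adjusted p = 0.00831, and 0.0804 among the 26 libraries).

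No member locus was called in either set-4 triple mutant versus the double mutant. In the set-4(n4600) triple mutant limma called 0 of 22, beside 0.182% of all tested loci. At an unadjusted limma p below 0.05 there were 0 of 22, beside 5.09% of all tested loci. In the set-4(dp268) triple mutant limma called 0 of 22, beside 0.545% of all tested loci. At an unadjusted limma p below 0.05 there were 2 of 22, beside 7.36% of all tested loci. edgeR and DESeq2 also called 0 in both. In the set-4(n4600) triple mutant 0 of 22 members did not overlap the double mutant, beside 0.999% of all tested loci, and in the set-4(dp268) triple mutant 2 did not, beside 2.27%. These were spp-4, with 33.6 to 52.9 scaled counts in the set-4(dp268) triple mutant, against 0 to 24.7 in the double mutant (limma adjusted p = 0.647), and spp-5, with 522 to 612, against 312 to 454 (limma adjusted p = 0.923). The double mutant includes 2 libraries of the smaller set, both at 0 for spp-4, and the set-4(dp268) triple mutant none. fipr-10 had 7.39, 4.26, 3.84, 7.00 and 2.12 scaled counts in the set-4(n4600) triple mutant and 3.66, 10.3, 3.25, 1.15 and 5.28 in the set-4(dp268) triple mutant, which overlap the 0 to 6.66 of the double mutant. fip-1 averaged 116 ± 44.4 and 127 ± 54.9 scaled counts in the n4600 and dp268 mutants, against 138 ± 42.6 in the double mutant (SD, n = 5 each).

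The log2 fold changes against the double mutant were 0.86 and 0.70 for fipr-10 (SE 0.44 each) and -0.28 and -0.15 for fip-1 (SE 0.38 each), for n4600 and dp268 in this order. For fipr-10 the unadjusted p were 0.0571 and 0.119 and the limma adjusted p 0.924 and 0.680, so that differences of this size could not be called. Between the alleles limma called 0 of 22, beside 0.182% of all tested loci. At an unadjusted limma p below 0.05 there was 1 of 22, beside 4.81% of all tested loci. fipr-6 and fipr-7 were at 0 in all 5 set-4(n4600) triple mutant libraries and had 11 and 5 fragments in the set-4(dp268) triple mutant. Compared with wild type, 7 and 8 members were called in the n4600 and dp268 mutants, beside 12% and 13.7% of all tested loci, and fipr-10, fipr-11, fipr-4, fipr-7, fip-1 and cnc-8 were among them in both, as they were in the double mutant. In the set-4(n4600) triple mutant fip-1 had a limma adjusted p of 0.0508 among the 26 libraries. These comparisons with wild type were added after the values were seen.

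Set against wild type, the other triple mutants had fewer members called. In the daf-16 triple mutant it was 1 of 22 (fipr-7, lower, limma adjusted p = 0.00915), beside 0.817% of all tested loci. In the daf-12 triple mutant it was 1 of 22 (fipr-10, lower, limma adjusted p = 0.0437), beside 1.09%. In the dpy-21 triple mutant it was 5 of 22 (fipr-10, fipr-11, fipr-7, fip-1 and cnc-2, all lower), beside 7.99% in either direction and 4.54% lower. Among the 26 libraries the adjusted p was 0.0940 for fipr-7 in the daf-16 triple mutant, 0.299 for fipr-10 in the daf-12 triple mutant and 0.257 for fipr-7 in the dpy-21 triple mutant, so that these calls were lost, while fipr-10, fipr-11, fip-1 and cnc-2 stayed called in the last. Calls in the other direction were gained there, namely spp-17 in the daf-16 triple mutant (log2 fold change 0.91, limma adjusted p = 0.000860), spp-23 in the daf-12 triple mutant (0.90, limma adjusted p = 0.0395) and the spp-14 locus in the dpy-21 triple mutant (0.80, limma adjusted p = 0.000271). The counts were then 1, 1 and 5 of 22, beside 0.817%, 1.18% and 5.63% of all tested loci. fipr-10 averaged 30.6 ± 13.7 scaled counts in the daf-16 triple mutant, 31.9 ± 15.8 in the daf-12 triple mutant and 8.91 ± 1.61 in the dpy-21 triple mutant, against 96.7 ± 17.2 in wild type (SD, n = 5 each), and in each of the 3 every library was below every wild-type library.

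**Figure D2:**
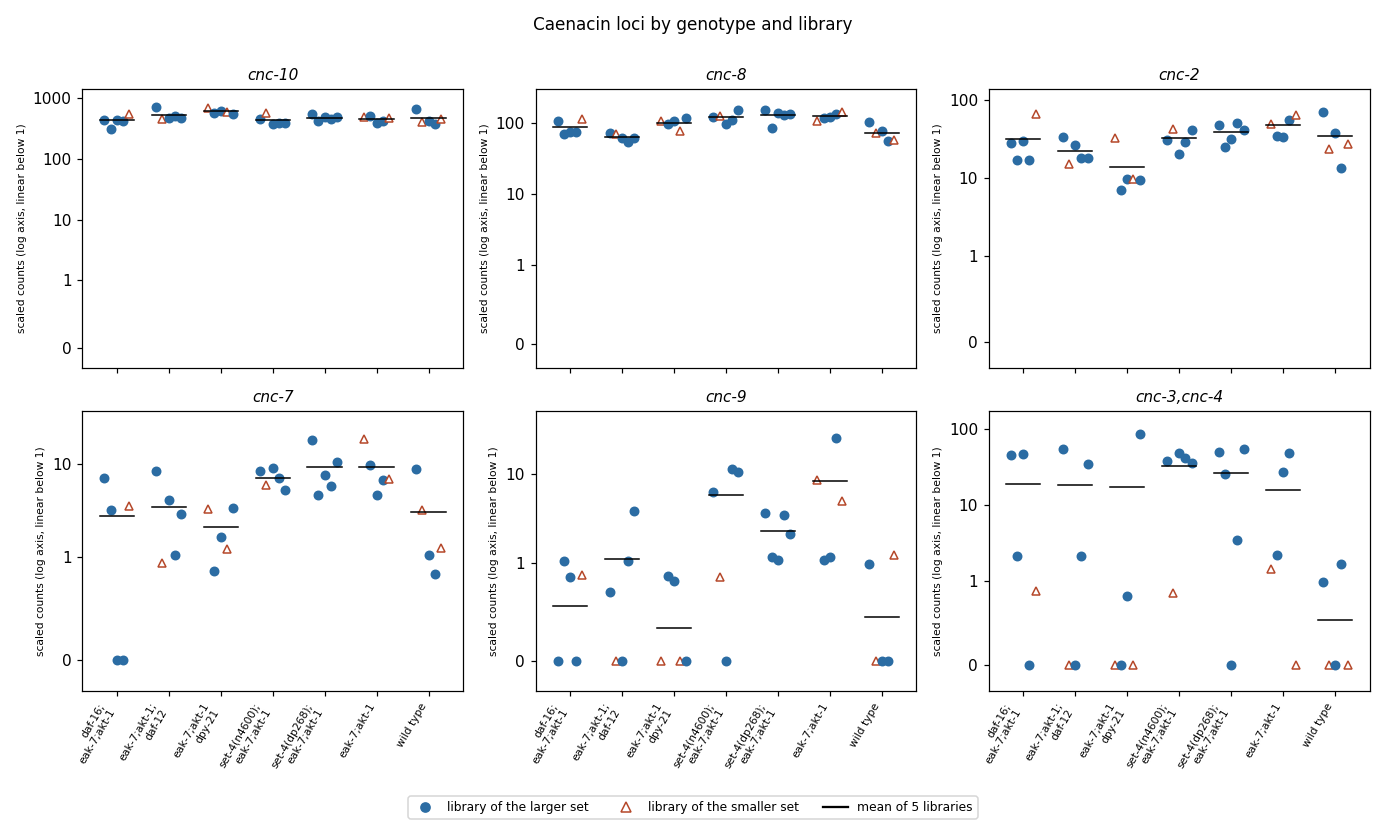
Scaled counts of 6 caenacin loci in each library, by genotype, on a log axis that is linear below 1; circles are the 26 libraries of the larger set, open triangles the 9 of the smaller set, and bars the means of 5 libraries. cnc-10 stays between 307 and 713 in all libraries, cnc-8 is lowest in the daf-12 triple mutant and wild type, and cnc-2 is at 6.93 to 9.83 in 4 of 5 dpy-21 triple mutant libraries.

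Of the 6 tested saposin-like loci, spp-23 did not overlap between the library sets, and spp-17 and spp-4 overlapped through 1 and 2 libraries. spp-17 and spp-23 are neighbours on chromosome I (1016405 to 1017176 and 1018843 to 1019157, both on the plus strand). spp-17 had 395 to 1420 scaled counts in the 26 libraries and 23.3 to 75.1 in 8 of the 9, the exception being replicate 6 of the dpy-21 triple mutant with 478. spp-23 had 20.0 to 118 scaled counts in the 26 libraries and was at 0 in 8 of the 9, with 1 fragment in the other. fipr-1, on chromosome V, had 4.11 to 28.5 scaled counts in the 26 and was at 0 in all 9. spp-4 (chromosome X) was at 0 in all 9 and in 2 of the 26. Of the 22 tested members, 2 (spp-23 and fipr-1) did not overlap between the sets, or 9.09%, against 6.90% of all tested loci.

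Of the other members, the cnc-3,cnc-4 locus and fipr-24 were low in the smaller set, with medians of 0 there (highest values 1.43 and 1.06 scaled counts) and 26 and 5.13 in the larger set, where some libraries were at 0 too. The caenacins cnc-10 and cnc-8 overlapped widely. cnc-10 had 307 to 713 scaled counts in the larger set and 406 to 677 in the smaller, and cnc-8 had 53.8 to 150.0 and 57.9 to 139. spp-5, which neighbours spp-4, was at 2.13 to 2.81 scaled counts in 4 of the 9 libraries, namely replicate 7 of the daf-12 triple mutant, replicate 9 of the dpy-21 triple mutant, replicate 7 of the set-4(n4600) triple mutant and replicate 7 of wild type, and had 189.6 to 612 in all others. The spp-14 locus was at 12.2 and 8.52 scaled counts in 2 of these 4, from the daf-12 triple mutant and wild type, and at 366 to 1025 elsewhere. All the low libraries of spp-5 and spp-14 were thus of the smaller set. The spp-13 locus had medians of 3.21 scaled counts in the larger set and 2.64 in the smaller. It also holds tag-123 and tth-1, which cannot be told apart from spp-13, and had at most 8 fragments in a library. A library low in spp-17 was not always low in spp-5, and a library low in spp-5 was not always low in spp-14.

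Of the C-type lectin loci, a list that includes genes of the intestine, 1 carried most of a difference between the sets. The locus of clec-264 and F31D4.9 had 62.3 to 135 scaled counts in the 26 libraries and 0 to 8.56 in the 9, whereas the clec-63,clec-64 locus had medians of 16.5 and 17.8. The whole list summed to 18.1 to 47.7 scaled counts in the 9 libraries and 87.4 to 175 in the 26, without overlap, although 212 of its 257 loci were at 0 in every library. The 9 intestinal markers summed to 63.8 to 123 scaled counts in the 9 libraries and 85.9 to 533 in the 26. Of these markers cpr-1 and cpr-5 were at 0 throughout, and ges-1 had 1 fragment in all. asp-3 had a median of 334 scaled counts in the 26 libraries and 39.6 in the 9. The other tested markers did not share this gap. Their medians in the 26 and the 9 were 33.9 and 37.1 for asp-1 and 5.27 and 4.40 for act-5. They were 12.7 and 13.2 for the ifb-2 locus and 5.25 and 6.16 for the vha-6 locus. The part of intestinal RNA in the saposin values was not tested.

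**Figure D3:**
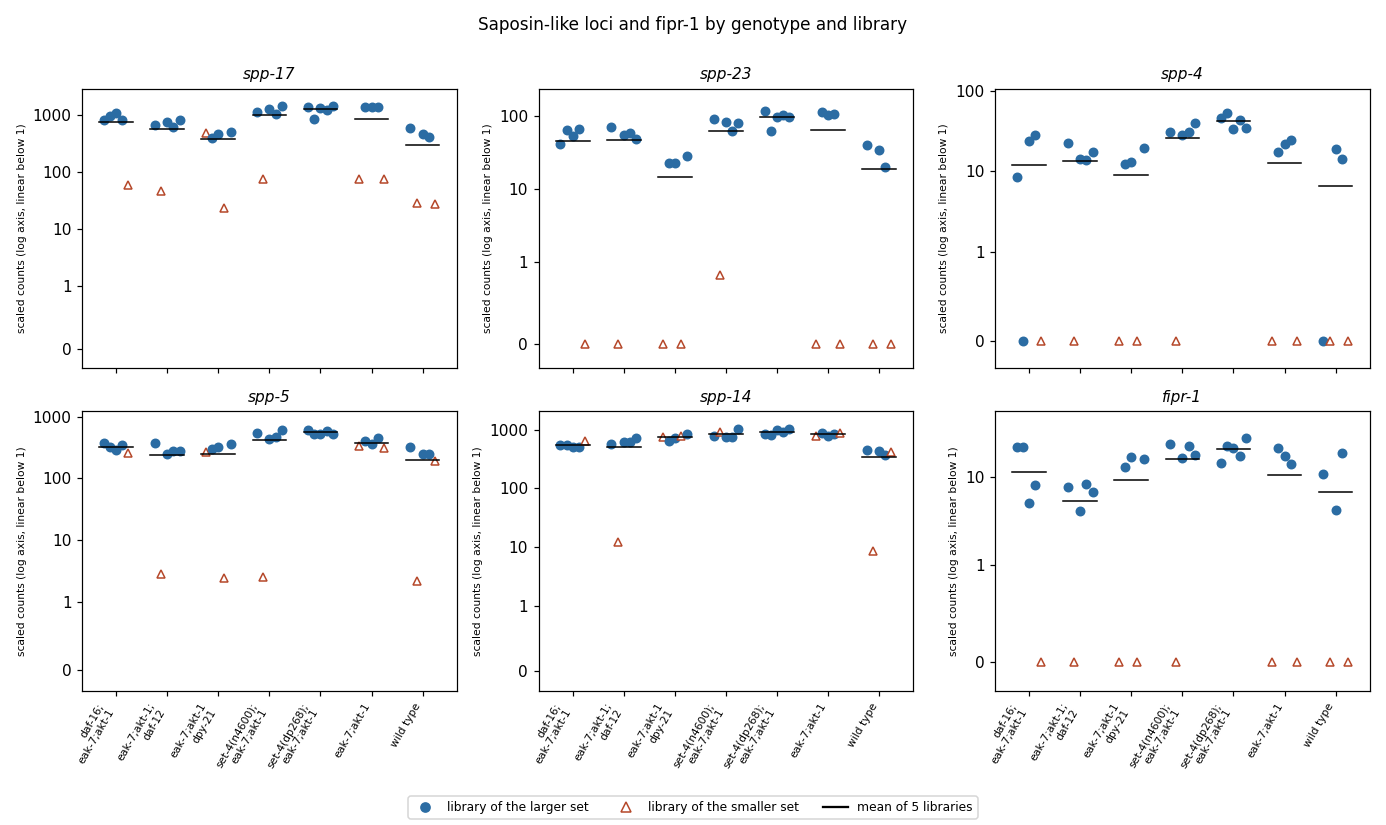
Scaled counts of 5 saposin-like loci and fipr-1 in each library, by genotype, on a log axis that is linear below 1; circles are the 26 libraries of the larger set, open triangles the 9 of the smaller set, and bars the means of 5 libraries. spp-23, spp-4 and fipr-1 lie at or near 0 in the triangles, and among the circles spp-17 has its highest means in the double mutant and the set-4 mutants.

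With all 35 libraries no saposin-like locus was called in any of the 6 comparisons. For spp-17 in the double mutant versus wild type, 72.8, 1379, 1336, 1342 and 75.1 scaled counts stood against 570.0, 28.7, 459.5, 408 and 27.1 (log2 fold change 1.46, SE 1.10, limma adjusted p = 0.464). Among the 26 libraries spp-17 averaged 1352 ± 23.1 scaled counts in 3 double mutant libraries and 479 ± 83.0 in 3 of wild type, with a log2 fold change of 1.51 (SE 0.17, limma adjusted p = 2.71e-07). The spp-17 values left out, 72.8 and 75.1 in the double mutant and 28.7 and 27.1 in wild type, were the lowest of their genotypes. In these 26 libraries 9 of 22 members were called in that comparison, beside 10.4% of all tested loci.

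The triple mutants split in the same way among the 26 libraries. spp-17 averaged 901 ± 127 scaled counts in the daf-16 triple mutant (n = 4), 698 ± 85.4 in the daf-12 triple mutant (n = 4) and 446 ± 50 in the dpy-21 triple mutant (n = 3), all below the 3 double mutant libraries. Against the double mutant these were log2 differences of -0.60, -0.96 and -1.60, and limma gave adjusted p of 0.0110, 9.28e-05 and 3.86e-07. Over all 35 libraries they were 0.29, -0.07 and -0.75, none called, so that the sign for the daf-16 triple mutant turned. In the set-4 mutants it averaged 1187 ± 163 (n4600, n = 4) and 1236 ± 234 (dp268, n = 5), and neither was called (limma adjusted p = 0.823 and 0.925).

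spp-23 was also highest in the double mutant and lowest in the dpy-21 triple mutant, with smaller counts, while the daf-16 and daf-12 triple mutants had nearly equal means. Among the 26 libraries it averaged 56.6 ± 11.3 scaled counts in the daf-16 triple mutant (n = 4), 58.3 ± 9.88 in the daf-12 triple mutant (n = 4), 24.7 ± 3.5 in the dpy-21 triple mutant (n = 3), 78.8 ± 11.3 in the n4600 mutant (n = 4), 96.0 ± 20.7 in the dp268 mutant (n = 5), 107 ± 5.84 in the double mutant (n = 3) and 31.8 ± 10.6 in wild type (n = 3). It rose in the double mutant versus wild type (log2 fold change 1.78, SE 0.24, limma adjusted p = 4.49e-06), and it fell in the dpy-21 triple mutant versus the double mutant (-2.08, SE 0.24, limma adjusted p = 1.30e-06). It also fell in the daf-16 and daf-12 triple mutants (limma adjusted p = 0.00622 and 0.0111). Over all 35 libraries the log2 differences of these last comparisons were 0.60 and 0.64, neither called. Against wild type, the dpy-21 triple mutant had log2 differences of -0.09 (SE 0.17) for spp-17 and -0.30 (SE 0.24) for spp-23 in these libraries, neither called (limma adjusted p = 0.815 and 0.507).

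The spp-14 locus also rose in the double mutant among the 26 libraries. It averaged 829 ± 41.5 scaled counts in the double mutant (n = 3) and 419 ± 47.1 in wild type (n = 3), with a log2 fold change of 0.99 (SE 0.13, limma adjusted p = 3.57e-06). In all 35 libraries every double mutant library was above every wild-type library, but the log2 fold change of 2.08 (SE 0.80) was not called (limma adjusted p = 0.0889). The locus fell in the daf-16 triple mutant, to 529.6 ± 23.6 scaled counts (n = 4, limma adjusted p = 0.000541), whereas in the dpy-21 triple mutant it stayed at 730.0 ± 96.6 (n = 3, limma adjusted p = 0.385). For spp-5 among the 26 libraries, the double mutant averaged 401 ± 50.3 and wild type 271 ± 38.8 scaled counts (n = 3 each), a log2 difference of 0.56 that was short of 1.5-fold (limma adjusted p = 0.0122).

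In the larger set, the calls were 6 of 22 members for the daf-16 triple mutant (beside 10.6% of all tested loci), 7 of 22 for the daf-12 triple mutant (7.9%), 5 of 22 for the dpy-21 triple mutant (9.63%), and 0 for n4600 and dp268 (0.0908% and 0.272%), each versus the double mutant. fipr-1 was added in the daf-12 triple mutant, with 6.75 ± 1.90 scaled counts (n = 4) against 17.8 ± 3.70 in the double mutant (n = 3, limma adjusted p = 0.0490). cnc-8 was added in the daf-16 triple mutant, with 80.4 ± 15.9 (n = 4) against 123 ± 8.02 (n = 3, limma adjusted p = 0.0444).

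**Figure D4:**
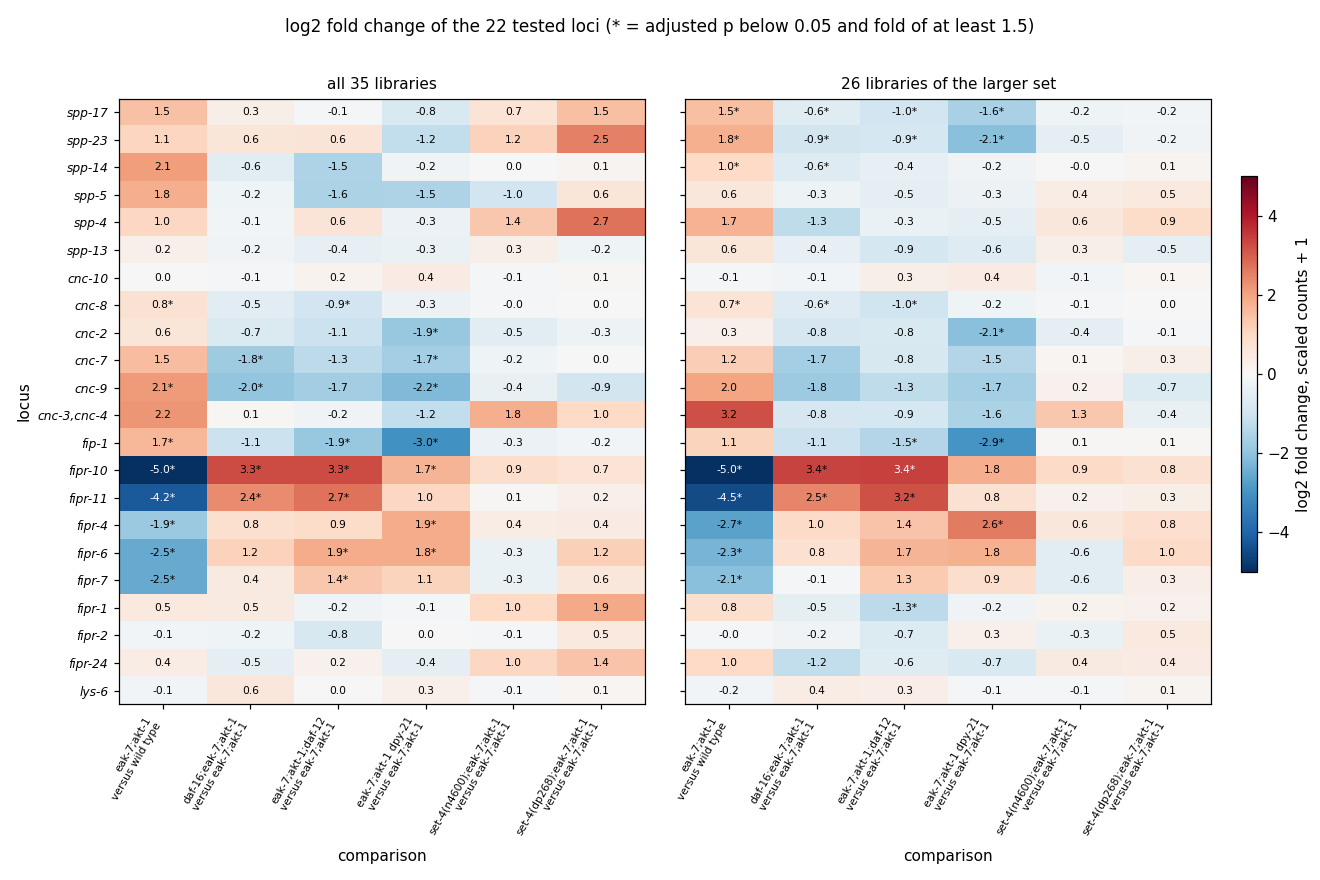
log2 fold change on the scale of scaled counts plus 1 for the 22 tested member loci (rows) in the 6 comparisons (columns), in all 35 libraries (left) and the 26 of the larger set (right); an asterisk marks an adjusted p below 0.05 with at least 1.5-fold. fipr-10 runs from -4.98 in the double mutant versus wild type to 3.28 in the daf-16 triple mutant versus the double mutant, the set-4 columns hold no asterisk, and those of spp-17 and spp-23 appear only on the right.

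The 22 loci seen in at least 5 libraries below the filter reached at most 12 fragments in a library. The fipr-23 locus, which also holds C37A5.3, went the other way from the fipr loci above, a choice made after its values were seen. It had 1, 1, 4, 1 and 2 fragments in the double mutant, against 0 in all 5 wild-type libraries, which is at least 3.24-fold higher by a floor of 3 fragments over the group (exact permutation p = 0.00794). It had 1 fragment in all in each of the daf-16, daf-12 and dpy-21 triple mutants (exact permutation p = 0.0159, 0.0159 and 0.00794 versus the double mutant), and 2 in the set-4(n4600) triple mutant (exact permutation p = 0.00794). In the set-4(dp268) triple mutant it had 8 fragments, against 9 in the double mutant (exact permutation p = 0.873). ilys-5, the invertebrate-type lysozyme with the highest mean, was seen in 5 libraries, with at most 2 fragments, and its exact permutation p ran from 0.167 to 1 over the 6 comparisons. Over these 22 loci, 5, 2, 3, 2, 1 and 1 had an unadjusted exact permutation p below 0.05 in the 6 comparisons, taken in the order wild type, daf-16, daf-12, dpy-21, n4600 and dp268. Other loci below the filter were not tested in this way, so whether these counts are high for such loci is not known. The cnc-3,cnc-4 locus, which did pass the filter, ran from 0 to 85.0 scaled counts within the dpy-21 triple mutant and was called nowhere.

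Other defence genes were taken from lists. The epidermal nlp genes encode antimicrobial peptides of the epidermis, and 6 of their 7 loci were tested. In the double mutant versus wild type 1 rose (the nlp-27,nlp-28 locus, log2 fold change 1.34, limma adjusted p = 0.000724) and 2 fell, namely nlp-25 (-2.14, limma adjusted p = 7.49e-07) and the nlp-33 locus (-0.79, limma adjusted p = 3.31e-05). Of all tested loci 13% were called in this comparison. nlp-25 averaged 14.5 scaled counts in the double mutant and 73.4 in wild type. nlp-32, nlp-34 and the locus of nlp-29, nlp-30, nlp-31 and str-83 were not called in any of the 6 comparisons. In the daf-16 and daf-12 triple mutants 2 rose and 1 fell, in the dpy-21 triple mutant 1 rose and 1 fell, and in both set-4 triple mutants none was called. The shares of all tested loci called were 10.4%, 9.99%, 12.3%, 0.182% and 0.545%, for daf-16, daf-12, dpy-21, n4600 and dp268 in this order. nlp-25 rose in the first 3, by 2.1, 1.90 and 1.44 on the log2 scale (adjusted p in limma = 1.64e-06, 6.40e-06 and 0.000445).

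Of 7 infection response loci 5 were at 0 in every library and 1 was tested, and 4 of 257 C-type lectin loci were tested. None of these was called in any of the 6 comparisons. The immune signalling list, which holds the p38 kinase pathway among others, had 4 of 20 loci tested and none called. Its sum ran from 120.6 to 161 scaled counts in the double mutant and from 135 to 157 in wild type. The pharyngeal and germ line lists had no tested locus.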

How the data were processed

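RNA-seq values of 35 libraries (7 genotypes, 5 each) were used. As deposited by the authors, they are a signal for each locus and library, the fragment count of CuffDiff divided by a size factor (scaled counts), from reads aligned with TopHat2 2.0.9 and Bowtie2 2.1.0. Per the labels CuffDiff was 2.1.1 and the genome build WBcel235. The study's methods name another CuffDiff version and UCSC build for the same steps. Coordinates given here are those of the gene names in the WBcel235 annotation, not of the table. Each value was a whole multiple (tolerance 0.1) of a step of 0.669 to 1.43 scaled counts per fragment, which gave back fragments in 100% of values. All sample columns were used.

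Loci that reached 5 scaled counts in 5 libraries or more entered a limma fit (version 3.58.1, under R 4.3.3). It was made to log2(scaled count + 1) with a mean-variance trend, 1 mean per genotype over all libraries and Benjamini-Hochberg adjustment over all 1101 loci within each comparison. A call needed 1.5-fold and an adjusted p below 0.05. A fold change on this scale understates that of low loci. Member loci below the filter had an exact two-sided permutation test of log2 values (scipy 1.17.1), whose smallest p is 0.00794. A group without fragments was set at a floor of 3 over its 5 libraries. Counting intervals of 95% and floors cover counting error only. The 5 comparisons of triple mutants with wild type and that between set-4 alleles were added after the values were seen.

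Named loci were spp-17, spp-23, members called in any of the 6 comparisons and the highest locus of each family. spp-4, spp-5, spp-13, spp-14, fipr-1, fipr-24, cnc-3,cnc-4 and the loci below the filter were named after their values were seen. The members and lists were chosen with earlier results of these data known. The methods of the study call the replicates experimental, and a figure legend on these data calls them biological. Whether they came from separate cultures was not given in the sources used here, so p-values measure the spread between these libraries. Alternatives were another pseudocount, filter and scaling, fits of 2 genotypes, a replicate block, edgeR 4.0.16, DESeq2 1.42.0, the 26 libraries, and leaving out each library. The test was tried on simulated data. Sequences were not used here.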

Additional observations from a re-analysis of the deposited data

Results flagged for a closer look

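Of 98 groups of 5 libraries of the 14 loci named by rule and tested, 12 held a library far from the other 4 (gap over range above 0.71), or 12.2%. Chance gives about 1 in 20 for normally distributed values, and whether scaled counts are so distributed was not tested. The rate does not apply to groups with 4 libraries at 0, of which 3 are among the 12. Of the 12 libraries, 6 belonged to the smaller set. spp-17 was lowest in such a library in 4 genotypes, with 57.2 scaled counts in the daf-16 triple mutant replicate 10, 45 in the daf-12 triple mutant replicate 7, 23.3 in the dpy-21 triple mutant replicate 9 and 74.1 in the set-4(n4600) triple mutant replicate 7, where the others of these genotypes had 395 or more. cnc-2 was highest in the daf-16 triple mutant replicate 10 with 66.9 scaled counts and in the dpy-21 triple mutant replicate 6 with 33.

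In the larger set, cnc-10 was highest in the daf-12 triple mutant replicate 6 with 713 scaled counts and in wild type replicate 6 with 665. fipr-6 and fipr-7 were seen in the double mutant replicate 7 alone with 2.16 scaled counts each, fipr-11 in the set-4(n4600) triple mutant replicate 6 alone with 4.22, and the cnc-9 locus was highest in the daf-12 triple mutant replicate 10 with 3.83. What sets these libraries apart was not tested.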

How the results depend on the processing

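For the 6 counts of called members, a filter of 10 scaled counts left 15 members tested and gave 4 calls in the double mutant versus wild type and 3 in the dpy-21 triple mutant versus the double mutant. Fits of 2 genotypes gave 2 for the daf-16 triple mutant versus the double mutant. All other settings stayed within 1.5 times. Leaving out 1 library gave 7 to 9 calls for the double mutant versus wild type, and versus the double mutant it gave 2 to 6 for the daf-16 triple mutant, 5 to 7 for the daf-12 triple mutant, 6 to 7 for the dpy-21 triple mutant and 0 for both set-4 mutants. For the daf-16 triple mutant 2 came without its replicate 8 or 9 or replicate 6 of the double mutant. The 26 libraries turned the direction of spp-17 (-0.60) and spp-23 (-0.93) in the daf-16 triple mutant and of spp-23 (-0.88) in the daf-12 triple mutant, each versus the double mutant, where all 35 gave uncalled values above 0; the cause was not tested.

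Same-numbered libraries of compared genotypes had correlations of -0.57 to 0.70 in their deviations, 13 of 30 above 0.1, so the numbers were not taken as pairs. With a replicate block the counts of calls were 9, 5, 9 and 7 for wild type, daf-16, daf-12 and dpy-21 and 0 for both set-4 mutants. Median-of-ratios rescaling moved the median log2 fold change of all tested loci by -0.13 (the double mutant versus wild type), 0.15 (the daf-12 triple mutant) and 0.22 (the dpy-21 triple mutant), and the counts of called members stayed at 8, 6 and 7. At a median of 56780 recovered fragments per library, loci with a few fragments, long transcripts above all, limit what can be seen.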
